A study of Mus musculus with 6 samples.

Results

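The genes described here are those of the 4 Hox clusters, homeobox transcription factors of the Hoxa, Hoxb, Hoxc and Hoxd clusters, in mouse 3T3 fibroblasts. Members were all non-control probes whose gene name was Hox followed by a cluster letter (a to d) and a number, which gave 44 of the 55681 probes on the array and 39 genes, 34 of them with 1 probe and 5 with 2. The 3T3 line is an established line of mouse embryonic fibroblasts grown as an adherent culture. The cells received either GapmeR Ntep, a short antisense strand with a DNA core that recruits RNase H against the long noncoding RNA Ntep, or GapmeR control, which has no intended target, each at 50 nM for 48 h. Each of 3 independent experiments gave 1 Agilent mouse array per GapmeR, so that 3 arrays labelled GapmeR Ntep were compared with 3 labelled GapmeR control. The labels name no genetic change in either group, and untransfected cells were not analysed here. These are whole cultures, so fewer cells that express a gene and less RNA per cell cannot be told apart.

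Hox genes lie side by side in 4 clusters on different chromosomes, and a gene keeps the number of its paralog group across clusters. In the embryo, genes at the low-numbered end are switched on earlier and closer to the head, and genes at the high-numbered end later and closer to the tail and the tips of the limbs. Fibroblasts of the adult body keep part of this code, so that the set of Hox genes a fibroblast culture expresses is known as a record of where its cells came from.

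The probe of Hoxd10 is shown because it measured the gene with the largest called difference and its bases tell which part of the transcript was read. It lies at chr2:74532280-74532339 (mm9, plus strand), in the homeobox, the stretch that encodes the DNA-binding domain shared by the family. Capitals mark a run of 7 of its 60 bases that a probe of Hoxb3 also holds, and no probe of another Hox gene shares a longer run with it.
Hoxd10 probe: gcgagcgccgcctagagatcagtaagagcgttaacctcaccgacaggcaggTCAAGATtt
Across all 44 Hox probes, the longest run shared with the probe of any other Hox gene was 7 to 11 bases (median 9). Matches of the probes to whole transcripts were not analysed here, and neither was the position of the other probes within their transcripts.

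Expression was read from the scanner software's own flag for a spot well above background, since the brightness of different probes cannot be compared. In 3T3 cells, 16 of the 39 Hox genes were well above background on all 6 arrays, 9 on some arrays and 14 on none. A gene without a flag is not shown to be silent, since most genes had 1 probe and probes of the same gene could differ. Of the 2 probes of Hoxa9, 1 was flagged on 5 arrays and the other on 0. The detected genes formed runs of neighbours. In the Hoxa cluster, Hoxa2, Hoxa3, Hoxa4, Hoxa5 and Hoxa7 were detected on all 6 arrays, and Hoxa6, which lies inside this run, on 5. Hoxa9 was also detected on 5 arrays, Hoxa10 and Hoxa11 on none, and Hoxa13 on 3. In the Hoxb cluster the run was shorter: Hoxb2, Hoxb3 and Hoxb4 were detected on all 6 arrays, whereas Hoxb1 on one side and Hoxb5 on the other were detected on none. Hoxb6 stood alone with 5 arrays among Hoxb5, Hoxb7 and Hoxb8, all 3 of which were detected on no array. Hoxb9 was detected on 1 array and Hoxb13 on none.

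The other clusters showed a different layout. In the Hoxd cluster, Hoxd3, Hoxd4, Hoxd8, Hoxd9 and Hoxd10 formed an unbroken run, each gene on all 6 arrays. No other member lies between Hoxd4 and Hoxd8. Hoxd1, Hoxd11 and Hoxd13, which lie outside this run, were detected on no array, and Hoxd12 was detected on 1. In the Hoxc cluster 2 isolated genes, Hoxc6 and Hoxc13, were detected on all 6 arrays, Hoxc4 on 4, Hoxc10 and Hoxc12 on 3 each, and Hoxc5, Hoxc8, Hoxc9 and Hoxc11 on none. By cluster, this came to 3 of 10 Hoxb genes, 2 of 9 Hoxc genes and 5 of 9 Hoxd genes on all 6 arrays. Every member of paralog groups 2 and 3 was detected on all 6 arrays (2 of 2 and 3 of 3), as were 3 of 4 members of group 4. No member of groups 11 and 12 was, and of the 4 members of group 13 only Hoxc13 was. A gene counted as detected where any of its probes was flagged. The 14 genes without a flag gave normalized signals between 20, the value to which all lower signals were set, and 43.4.

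**Figure D1:**
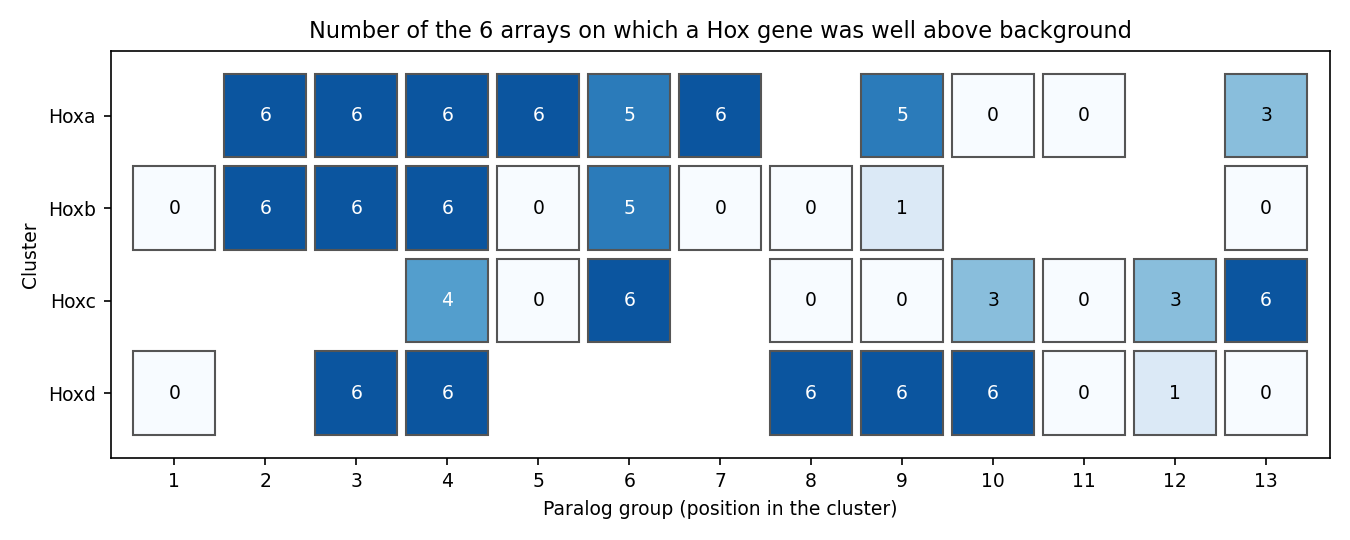
Number of the 6 arrays (0 to 6, printed in each square and shown by shade) on which each Hox gene was well above background, by cluster (rows) and paralog group (columns). Empty places have no gene reported here. The squares with 6 form runs in Hoxa (2 to 5), Hoxb (2 to 4) and Hoxd (3 and 4 with 8 to 10). No Hoxd member lies between 4 and 8, and groups 11 and 12 hold no square with 6.

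The arrays themselves differed in what they detected. The scanner software flagged 43.7% to 53.3% of all probes as well above background per array, and 18 to 23 Hox genes. All 8 fibroblast markers (among them Col1a1, Col1a2 and Vim) were well above background on all 6 arrays. Their summed signal was 454969 to 598539 on the arrays labelled GapmeR Ntep and 672564 to 744762 on those labelled GapmeR control. Under GapmeR Ntep 7 of them read lower and 1 higher, and the middle of their log2 differences was -0.59. None was called by limma, by the methods' t-test or with the experiments as blocks. At an unadjusted limma p under 0.05, 2 were lower and 0 higher. Of the 5 macrophage markers, Ptprc and Adgre1 were detected on no array, whereas the summed signal of the list was 32969 to 62630 on the arrays labelled GapmeR Ntep and 15431 to 21130 on those labelled GapmeR control. Cd68 was the 1 of the 3 tested macrophage markers called (0 of 3 by the methods' t-test, 3 of 3 with the experiments as blocks). Over the whole array, the fit with blocks called 4292 of 30990 tested probes. The part of the macrophage transcripts in the Hox results was not tested. Of the other lists, 2 of 4 epithelial and 2 of 3 endothelial markers were detected on all 6 arrays. No probe was called in either (adjusted p under 0.05, limma and the methods' t-test alike). At an unadjusted limma p under 0.05 there was 1 each, where 25% of all tested probes passed. The probe for Ntep itself (A630089N07Rik, chr16:98283712-98283771 in mm9) read 472 with GapmeR Ntep and 271 with GapmeR control in experiment 1, 91.5 and 272 in experiment 2, and 226 and 361 in experiment 3. In experiment 1 it was therefore higher on the array labelled GapmeR Ntep. Its mean log2 difference, -0.48 with an SE of 0.58, lay within the spread between arrays (limma adjusted p = 0.632), and the two-sided exact permutation test gave p = 0.7 where 3 against 3 arrays allow no less than 0.1. Directions below are those of the labels.

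For the comparison of labels, signals were quantile normalized and fitted with limma over the 30990 probes whose mean reached 50 under at least 1 label. Of the 44 Hox probes, 25 passed this filter, with 9 in the A cluster, 5 each in B and C and 6 in D, and they belong to 24 genes. A dim probe can pass through 1 bright array alone, and the other 19 Hox probes were not tested. After Benjamini-Hochberg adjustment, 1 Hox probe rose, that of Hoxd10, and 1 fell, that of Hoxa2, where 2.09% of all tested probes were called higher and 3.21% lower. At a fold change of at least 2 with an unadjusted p under 0.01, only Hoxd10 passed (3.08% of all probes higher, 5.06% lower). Groups of arrays did not overlap for 4 Hox probes in the higher direction, those of Hoxa3, Hoxb3, Hoxc6 and Hoxd10, and for 2 in the lower, those of Hoxa2 and Hoxd8 (17% and 15.1% of all tested probes). With so few calls among 25 probes, these counts do not set the Hox genes apart from the array as a whole. The 25 differences ran from -1.41 to 1.74 on the log2 scale, 14 above 0 and 11 below, with a median of 0.18 against 0.06 over all tested probes.

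Hoxa2, which patterns the second branchial arch and the hindbrain, was the member with the called fall. The 3 arrays labelled GapmeR Ntep read 2639, 2364 and 2612, and those labelled GapmeR control 5087, 4805 and 4838 (means 2538 ± 152 and 4909.8 ± 154, SD, n = 3 each). The 2 sets of arrays lay far apart, and the difference was nearly the same in each experiment (log2 -0.95, -1.02 and -0.89). The log2 difference was -0.95 (SE 0.15, limma adjusted p = 0.0328). It stayed between -0.98 and -0.90 when any 1 of the 6 arrays was left out, but in each of these 6 fits the adjusted p rose above the threshold (0.0536 to 0.148). The probe lies at chr6:52112595-52112654 (mm9, minus strand). Its neighbour Hoxa3, whose probe lies 6.49 kb away, gave a log2 difference of 0.37 that did not pass.

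Hoxd10, a gene of the hind limb and the lower spinal cord, was the member with the called rise. Its homeobox probe gave 359, 191 and 316 on the arrays labelled GapmeR Ntep and 95.9, 109 and 99.5 on those labelled GapmeR control (means 288 ± 87.3 and 101 ± 6.66). The controls were tightly grouped, while the arrays labelled GapmeR Ntep spread widely and lay above them in all 3 experiments. The log2 difference was 1.46 (SE 0.27, limma adjusted p = 0.0411). Leaving out 1 array gave differences of 1.28 to 1.73 and kept the call in 1 of 6 fits, that without GapmeR Ntep replicate 2 (adjusted p 0.0384 to 0.156 over the 6). The call was also lost with no filter on the mean signal (adjusted p = 0.101) and in the methods' t-test (0.0958). With normexp background correction, which raises dim signals, the difference was 0.86 (adjusted p = 0.0444). The neighbouring Hoxd9, 5.4 kb away, gave 370, 545 and 483 against 334, 864 and 584, a difference of -0.26 that did not pass (SE 0.38, adjusted p = 0.69).

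The upstream sequences of both called genes are shown because these 2 genes moved in opposite directions. Each is the 250 bases before the RefSeq transcription start in GRCm38.p6, at chr6:52164832-52165081 (minus strand) for Hoxa2 and chr2:74691641-74691890 (plus strand) for Hoxd10. Capitals mark matches on either strand to TATAAA (the TATA box), CCAAT (the CCAAT box bound by NF-Y), TGATNNAT (a site of the kind that Hox and Pbx proteins bind together) and TAATTA (a core bound by many homeodomains).
Hoxa2 upstream: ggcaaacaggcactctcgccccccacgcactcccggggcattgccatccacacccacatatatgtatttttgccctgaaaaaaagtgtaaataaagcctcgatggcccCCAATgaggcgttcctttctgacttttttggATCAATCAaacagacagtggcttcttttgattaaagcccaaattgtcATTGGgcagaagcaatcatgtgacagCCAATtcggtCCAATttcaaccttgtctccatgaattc
Hoxd10 upstream: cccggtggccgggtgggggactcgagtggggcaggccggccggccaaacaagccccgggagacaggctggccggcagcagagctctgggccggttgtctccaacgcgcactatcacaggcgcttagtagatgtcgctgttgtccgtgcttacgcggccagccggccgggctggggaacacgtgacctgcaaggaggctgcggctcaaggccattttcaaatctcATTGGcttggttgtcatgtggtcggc
The Hoxa2 window held 4 CCAAT matches and 1 TGATNNAT match, and that of Hoxd10 held 1 CCAAT match and none of the others. CCAAT was found in 33.8% of the 32851 windows of this length in the table and in 14 of 24 Hox windows (58.3%), and TGATNNAT in 7.68% and in 4 of 24 (16.7%). The shares were 12.4% and 4 of 24 for TATAAA, and 4.84% and 2 of 24 for TAATTA. The windows of the 2 genes differed in base composition: the Hoxa2 window had 46.4% G and C with 6 CpG dinucleotides, and the Hoxd10 window 65.6% with 20, against medians of 52.4% and 6 over all windows and of 58.6% and 12.5 over the 24 Hox windows. The table held 22 Hox genes, and the match of letters is a description with no test.

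**Figure D2:**
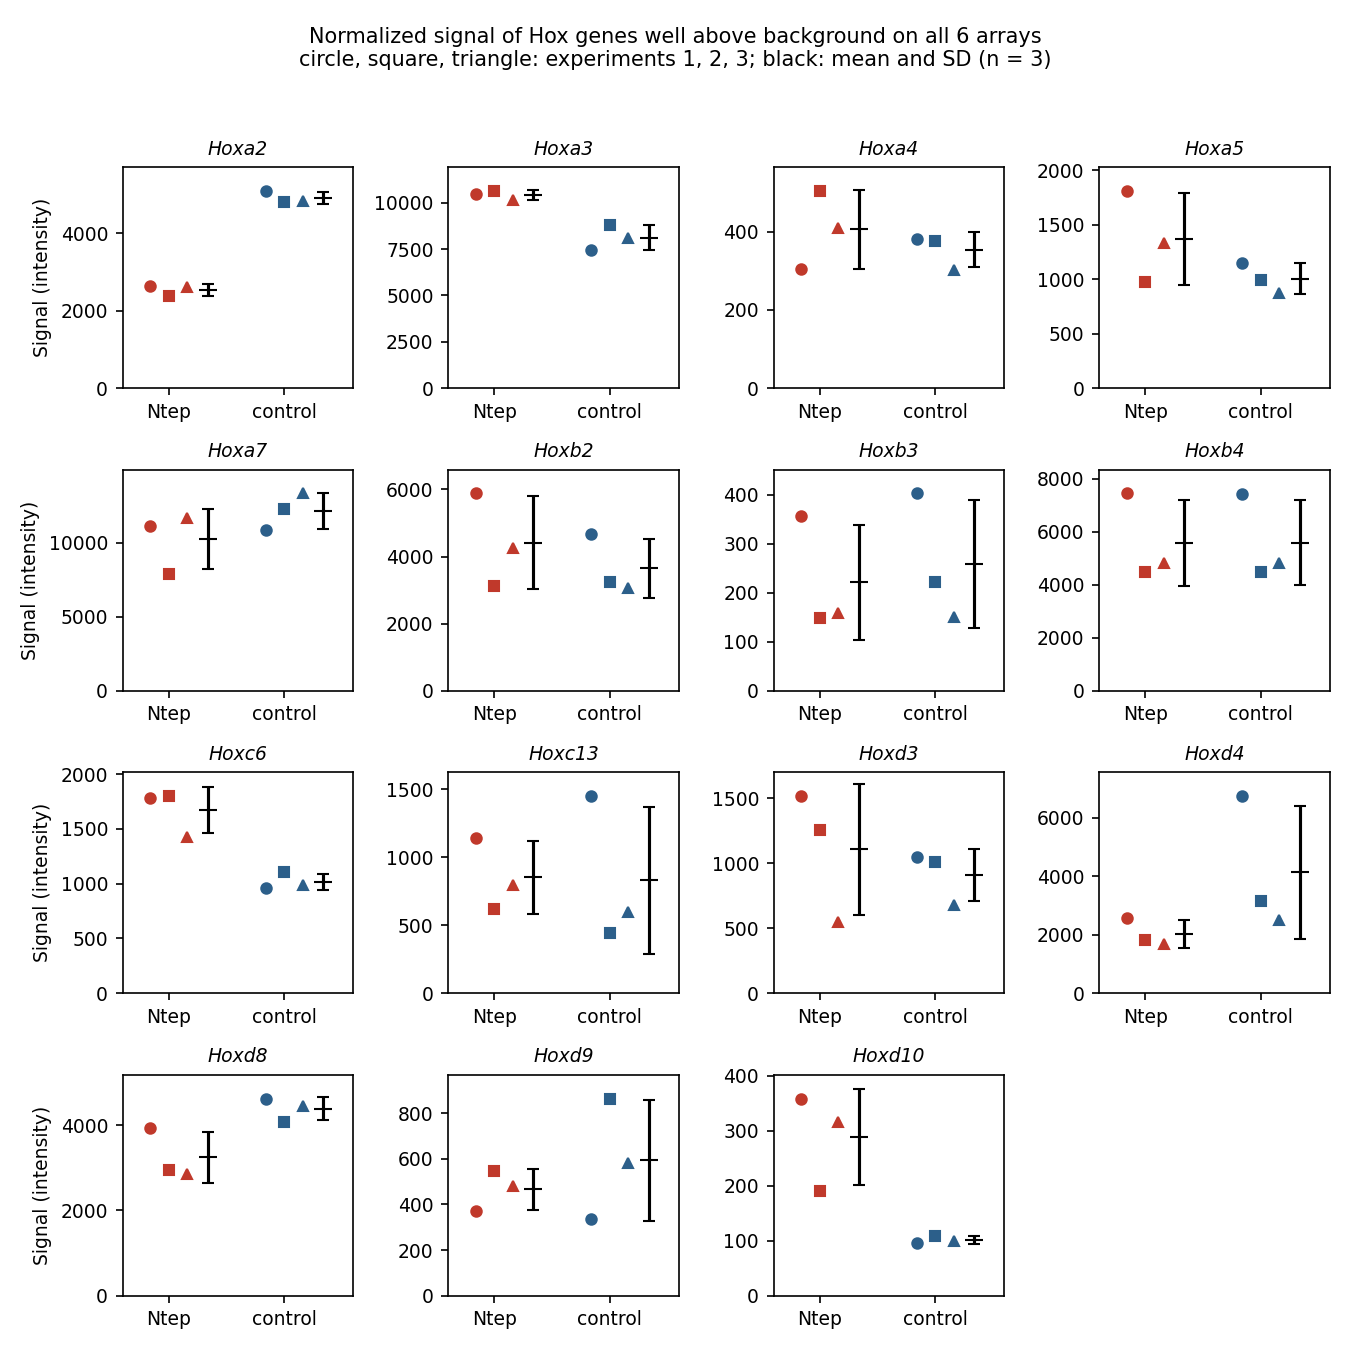
Normalized signal (intensity, linear axis from 0) of the brightest probe of 15 of the 16 Hox genes well above background on all 6 arrays, for the arrays labelled GapmeR Ntep (red) and GapmeR control (blue); symbols mark experiments 1 to 3, and black marks are means with SD (n = 3). The labels separate in Hoxa2, Hoxa3, Hoxc6, Hoxd8 and Hoxd10, and in Hoxb2, Hoxb3, Hoxb4 and Hoxc13 the circles of experiment 1 stand above the other symbols under both labels.

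Among the remaining Hoxa genes none passed the adjusted threshold. Hoxa3, which is needed for the thymus and parathyroid, gave 10498, 10638 and 10137 on the arrays labelled GapmeR Ntep against 7443, 8773 and 8115 on those labelled GapmeR control, without overlap and higher in all 3 experiments (log2 difference 0.37, SE 0.16, limma adjusted p = 0.215). Hoxa4, a gene of the neck region, gave 304, 504 and 410 against 382, 376 and 302. The arrays of the 2 labels overlapped in Hoxa4. Hoxa5, a gene of the cervical vertebrae and the lung, gave 1810.3, 972 and 1332 against 1150, 994 and 869. Hoxa7, which acts in the trunk, gave 11138, 7888 and 11673 against 10861, 12274 and 13321. Both overlapped, and their log2 differences were 0.41 (SE 0.27) and -0.26 (SE 0.22). Hoxa6 and Hoxa9 were dim (86.2 to 105 and 67.5 to 84.4 over the 6 arrays), and their differences of -0.014 and -0.048 were smaller than their SEs of 0.17 each. For Hoxa13, a gene of the distal limb and the genital tubercle, the brighter probe gave 98.5, 84.9 and 39.7 against 56.7, 30.9 and 44.8 (log2 difference 0.69, SE 0.42, adjusted p = 0.352).

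In the Hoxb cluster no probe was called (limma, adjusted p under 0.05). The methods' t-test also called 0 of 5. At an unadjusted limma p under 0.05 the count was 0 of 5, against 25% of all tested probes. Hoxb2, a hindbrain gene, gave 5880.3, 3113 and 4254 on the arrays labelled GapmeR Ntep against 4660.2, 3237 and 3051. Hoxb4, known for its role in blood stem cells, gave 7452, 4465 and 4835 against 7437, 4497 and 4832. In both, the arrays of experiment 1 were the highest, and in Hoxb4 the 2 arrays of each experiment were almost equal (log2 differences 0.0029, -0.01 and 8e-04). The 2 probes for Hoxb3 disagreed. The brighter gave 356, 148 and 158 against 402, 222 and 149.7 (log2 difference -0.23, SE 0.49), and the other gave 109, 77.5 and 76.3 against 62.0, 70.5 and 68.9 (0.37, SE 0.20, adjusted p = 0.321), without overlap but well above background on 3 arrays only. Hoxb6, a trunk and forelimb gene, gave 132, 163 and 132 against 177, 119 and 67.4 (0.33, SE 0.37).

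In the Hoxc cluster, Hoxc6, a gene of the chest region and the mammary gland, gave 1783, 1801 and 1426 on the arrays labelled GapmeR Ntep against 959, 1102 and 989. All 3 arrays labelled GapmeR Ntep lay above all 3 controls. The log2 difference was 0.71 (SE 0.18) with an unadjusted limma p of 0.00686 and an adjusted p of 0.0734, so that it did not pass; it passed where only probes well above background on all arrays of a label were tested (adjusted p = 0.0469) and with array weights (0.0277). Hoxc13, which acts in hair and nails, gave 1144, 616 and 797 against 1451, 443 and 597, again with both arrays of experiment 1 highest. Hoxc4 gave 20, 69.5 and 20 against 48.9, 92.8 and 116, and was well above background on 1 array labelled GapmeR Ntep and on all 3 controls (log2 difference -1.41, SE 0.59, adjusted p = 0.206). The values at 20 are the floor, and with a floor of 5 the difference was -1.99 (adjusted p = 0.193). Hoxc10 and Hoxc12, both of the hind end of the body, lay between 31.6 and 138 and between 35.8 and 98.5, and their differences of 0.41 (SE 0.55) and 0.28 (SE 0.43) did not pass.

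In the Hoxd cluster, 3 genes of the detected run were lower by their group means under GapmeR Ntep without passing the threshold. Hoxd4, which patterns the upper neck, gave 2581, 1821 and 1687 on the arrays labelled GapmeR Ntep against 6751, 3148 and 2507. It was lower in all 3 experiments (log2 -1.39, -0.79 and -0.57), and under each label the array of experiment 1 was the highest. Its controls spread widely and the arrays overlapped (log2 difference -0.92, SE 0.41, limma adjusted p = 0.231). With the experiments as blocks the limma adjusted p was 0.0645, which did not pass either. Without GapmeR control replicate 1 the difference was -0.49. Hoxd8, a trunk gene, gave 3938, 2957 and 2858 against 4624, 4086 and 4449, without overlap (-0.45, SE 0.19, adjusted p = 0.219). Hoxd9 was given above. Hoxd3, a gene of the first neck vertebrae, gave 1518, 1258 and 545 against 1046, 1009 and 679.7, which overlapped (0.18, SE 0.43). Hoxd12 gave 752 on GapmeR Ntep replicate 3 and 20 on the other 5 arrays. Its difference of 1.74 (SE 1.42, limma adjusted p = 0.484), the highest among the 25, came from this single spot. The local background of that spot was 63, against 29.5 to 35 on the other arrays.

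**Figure D3:**
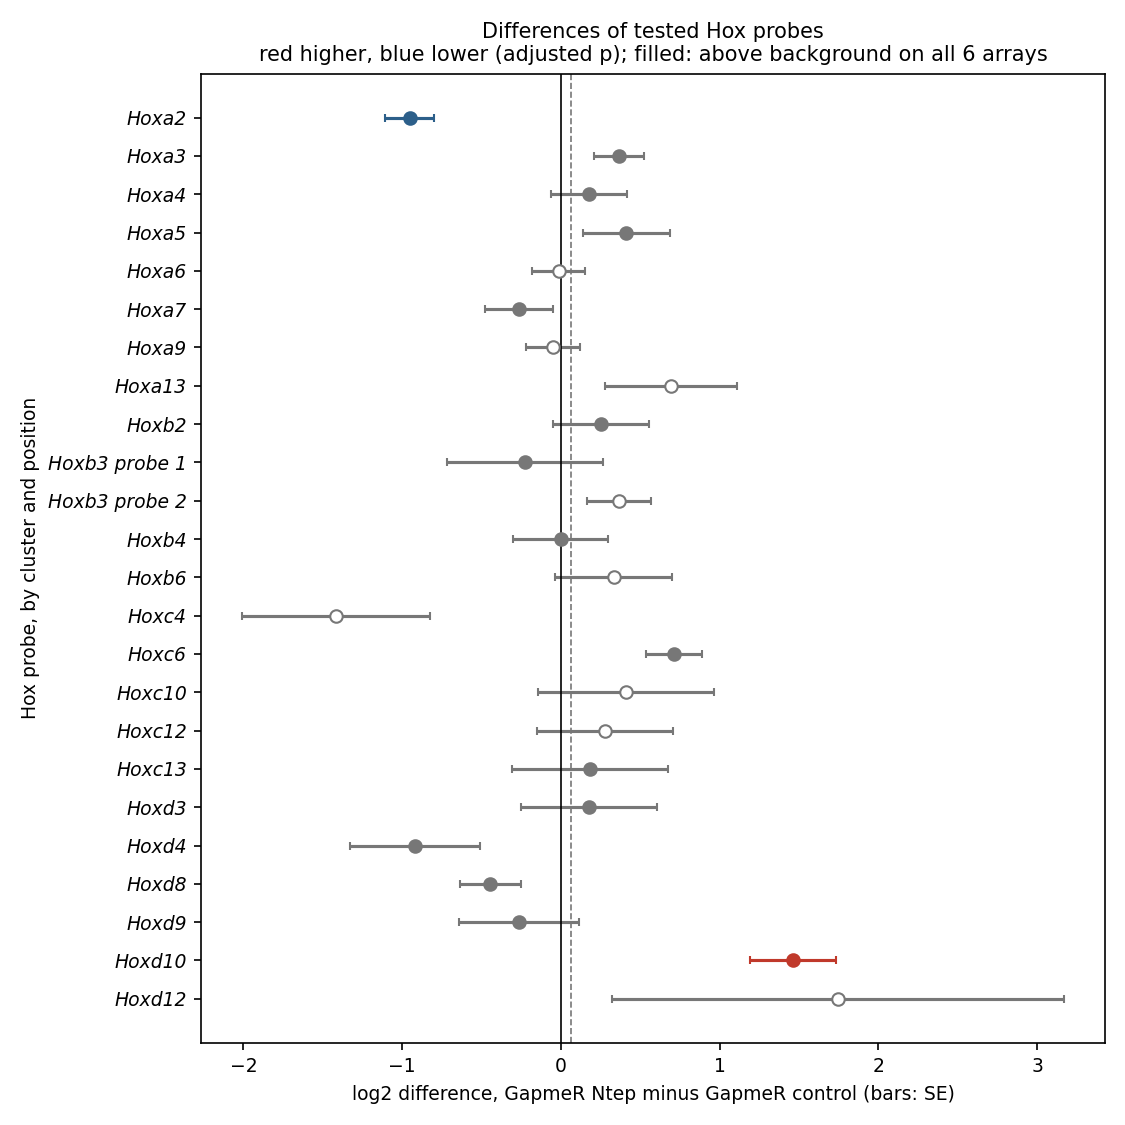
Log2 difference (GapmeR Ntep minus GapmeR control, bars: SE) of 24 of the 25 tested Hox probes, ordered by cluster and position from Hoxa2 at the top to Hoxd12 at the bottom; filled points were well above background on all 6 arrays, the solid line marks 0 and the dashed line the median of all tested probes (0.06). Hoxa2 (blue) and Hoxd10 (red) passed the adjusted threshold, and points on both sides of 0 occur in every cluster.

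By position along the clusters, the median log2 difference was -0.0021 over the 11 tested probes of paralog groups 1 to 4, 0.16 over the 6 of groups 5 to 8 and 0.34 over the 8 of groups 9 to 13. In groups 9 to 13, the probes of Hoxa9, Hoxa13, Hoxc10, Hoxc12 and Hoxd12 were not well above background on all 6 arrays. The others there, Hoxc13, Hoxd9 and Hoxd10, gave 0.18, -0.26 and 1.46. A trend along the clusters was not tested. By cluster the median was -0.014 in A, 0.25 in B, 0.28 in C and -0.042 in D. Among the 16 brightest probes well above background on all 6 arrays, 8 were higher and 8 lower, with a median of 0.087. Of these 16, 3 were higher in all 3 experiments (Hoxa3, Hoxc6 and Hoxd10) and 4 lower in all 3 (Hoxa2, Hoxd4 and Hoxd8 among them), against 35.8% and 27.8% of all probes well above background on all 6 arrays. These shares were not tested against each other.

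In several members the arrays of experiment 1 stood apart under both labels, a pattern chosen after the values were seen and given with no test. In 8 of the 25 tested Hox probes (32%) both arrays of experiment 1 lay above the other 4, against 12.4% of all tested probes. Among them were the probes of Hoxa6, Hoxb2, Hoxb3 (the brighter), Hoxb4, Hoxc10, Hoxc12 and Hoxc13. In 1 of 25 both lay below the other 4, against 12.9% of all probes. No Hox probe was highest on both arrays of experiment 2 or of experiment 3, where 5.68% and 4.24% of all tested probes were. The median Hox probe was 0.18 above its mean over the 6 arrays in experiment 1 on the log2 scale and 0.089 and 0.098 below it in experiments 2 and 3, while the median over all tested probes stayed within 0.0103 of 0. Hoxa13, Hoxc10 and Hoxc12 were detected on the same 3 arrays, both of experiment 1 and GapmeR Ntep replicate 2, which were also the 3 arrays with the largest shares of all probes well above background (49.8%, 51.8% and 53.3%, against 43.7% to 47.6% on the others). The part of array-wide sensitivity in this pattern was not tested.

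**Figure D4:**
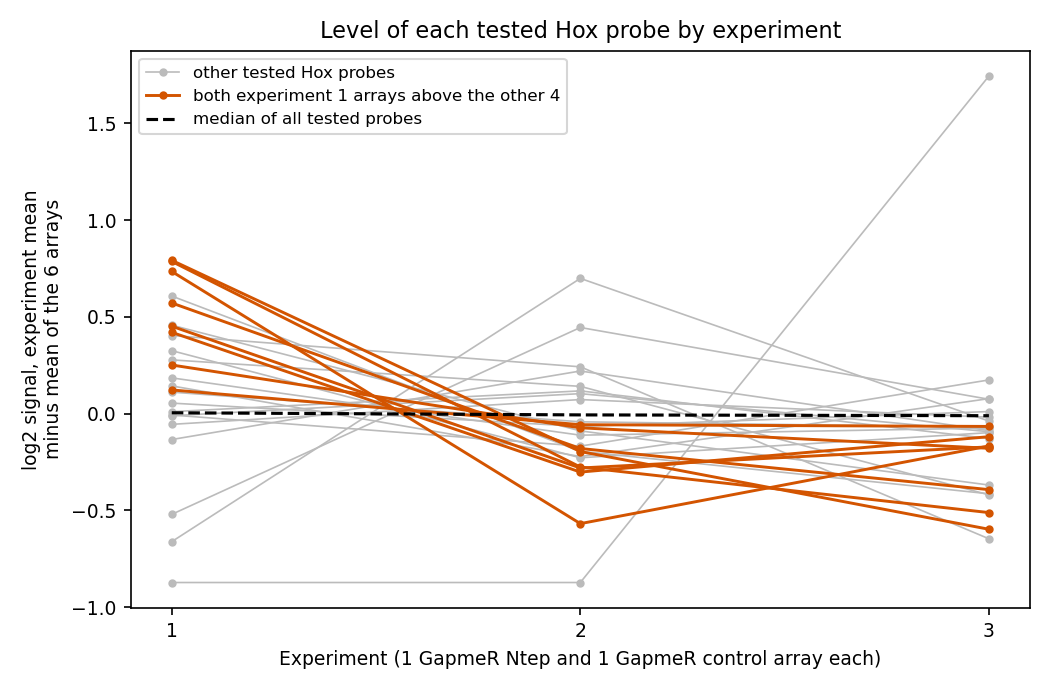
Mean log2 signal of the 2 arrays of each experiment minus the mean over all 6 arrays, for each of the 25 tested Hox probes (lines). Orange lines are the 8 probes with both arrays of experiment 1 above the other 4, grey lines the other tested Hox probes, and the dashed line is the median of all tested probes; the orange lines fall from experiment 1 to the other two, and the single grey line that ends at the top is Hoxd12.

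Transcripts that work with or on Hox genes were read from lists by the brightest probe of each gene. Of the 6 noncoding RNAs of the Hox clusters, 2 were tested, and Hoxd3os1 (1700109F18Rik in the files), transcribed from the minus strand of the Hoxd cluster, fell. Its probe at chr2:74548166-74548225 (mm9) lies between those of Hoxd8, 3 kb away, and Hoxd4, 18.7 kb away. It gave 1429, 1741 and 1759 on the arrays labelled GapmeR Ntep against 2849, 2979 and 3033, without overlap (log2 difference -0.85, SE 0.17, limma adjusted p = 0.0458). The other, Hoxaas3, gave -0.11. Of the 15 tested genes flanking the clusters 1 fell, Cbx5 near the Hoxc cluster, which encodes the heterochromatin protein HP1 alpha (-1.85, SE 0.27, adjusted p = 0.0288), and none rose; with the experiments as blocks 3 fell and 1 rose. Evx1 and Evx2, homeobox genes next to the Hoxa and Hoxd clusters, were at the floor of 20 on all 6 arrays.

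Cofactors and regulators were called in few cases. Of the 10 TALE homeodomain cofactors, which bind DNA together with Hox proteins, 8 gave lower and 2 higher values. Their median log2 difference was -0.32, and none was called (limma, adjusted p under 0.05). At an unadjusted p under 0.05, 1 was higher and 3 lower, where 12.5% of all tested probes passed in each direction. Arrays did not overlap for 2 in the higher and 3 in the lower direction. The fit with blocks called 0 higher and 1 lower. Pknox1, which was higher in all 3 experiments, gave 1841, 1787 and 2009.6 against 1190, 1252 and 1236 (0.61, SE 0.15, adjusted p = 0.0719), and was the 1 of the 10 called by the methods' t-test (0.0482). None of the 29 Polycomb genes, which keep Hox genes silent, was called by adjusted p in the same fit, and their median was -0.052. At an unadjusted limma p under 0.05, 1 was higher and 4 lower. A fold of at least 2 with an unadjusted limma p under 0.01 was reached by 1 higher, Aebp2 (1.17, adjusted p = 0.0696), and 0 lower. The methods' t-test called 0 of the Polycomb genes, and the blocks called 1 of them, Aebp2, as higher. Of the 15 trithorax genes and H3K27 demethylases, which oppose them, 11 gave higher and 4 lower values, with a median of 0.26. At an unadjusted p under 0.05, 5 were higher and 1 lower. The 1 called by adjusted p was the histone methyltransferase Ash1l, which fell. It gave 152, 270 and 341 against 1660, 1460 and 1299 (-2.60, SE 0.33, limma adjusted p = 0.0246). A fold of at least 2 with an unadjusted limma p under 0.01 was reached by 1 higher, Rbbp5 (1.00, adjusted p = 0.0547), and 1 lower, Ash1l. Blocks gave 2 higher and 1 lower.

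Retinoic acid switches on low-numbered Hox genes in the embryo, and 15 of 20 genes of its pathway and of the Cdx family were tested. Crabp2, which carries retinoic acid to its receptors, rose (2.27, SE 0.37, limma adjusted p = 0.0335), with 13650, 6587 and 7109 against 2474, 1382 and 1662. Dhrs3, which lowers retinoic acid by reducing retinal, fell (-1.95, SE 0.39, adjusted p = 0.0481). Aldh1a1, which makes retinoic acid, was not well above background on any array labelled GapmeR Ntep and was at least 2.33-fold lower there (mean signals 30.3 and 116, adjusted p = 0.0288). With the experiments as blocks 2 of the 15 rose and 3 fell. Of 19 tested transcription factors of other positional systems 1 was called by adjusted p, Msx1, a homeobox gene of limb and facial mesenchyme. It rose (1.19, SE 0.19, limma adjusted p = 0.0335). A fold of at least 2 with an unadjusted limma p under 0.01 was reached by 1 higher and 1 lower. Blocks gave 1 higher and 3 lower. Over all these lists the methods' t-test, adjusted over all probes, called only the 1 TALE gene. Without GapmeR control replicate 2 or GapmeR Ntep replicate 3, limma called 0 probes of the whole array after adjustment (5072 and 6116 at an unadjusted p under 0.05). None of the calls by adjusted p above therefore held in those 2 fits.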

How the data were processed

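RNA of 6 cultures of 3T3 cells (3 labelled GapmeR Ntep, 3 GapmeR control) was hybridised in 1 color. The authors extracted the spots with Feature Extraction 10.7.3.1 and deposited, for each array, background-subtracted intensity values on a linear scale. A second deposited file holds their intensity values after quantile normalization, with a floor of 20. The files' probe coordinates are those of mm9. All 6 arrays lay on 1 slide and were scanned together, and the number of arrays limits the precision.

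Here the deposited intensity values were averaged over the spots of a probe, quantile normalized, raised to the floor of 20 and put on a log2 scale. The labels were compared in R 4.3.3 with limma 3.58.1, unpaired as in the study. The test took in every probe whose mean reached 50 under at least 1 label, with two-sided p-values adjusted over all of them. A probe was called at an adjusted p under 0.05. A second rule, a fold of at least 2 with an unadjusted p under 0.01, was counted beside it and is named where it was used. A probe was well above background where most of its spots, or as many as not, were flagged so. The array labels carry no replicate number; the numbers used here are those of the study's own sample list, which numbers the arrays of each GapmeR and gives same-numbered arrays the same date; what the date marks is not stated there. The residuals of same-numbered arrays had correlations of 0.466, 0.300 and 0.254 (all other pairs lay between -0.327 and 0.126). Between experiments 2 and 3, arrays of unlike number gave 0.126 and 0.113, so the correlations set experiment 1 apart more clearly than these 2 from each other. The pairing was taken from the list, and a fit with the experiment as a block was run beside the unpaired one.

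Named array by array were Hox probes called by either rule and the brightest probe of each gene well above background on all 6 arrays, and from the lists the probes called by adjusted p. The values of 1 Hox gene and of 1 cofactor and the sequence of 1 probe are not reported here, although counts and medians include them. Others that the text names were chosen after their values were seen. The members and lists were chosen with earlier results of these data known. Of 180 list symbols, 169 were matched to RefSeq, and all 44 Hox probes carried the RefSeq symbol. Upstream windows came from RefSeq (GRCm38.p6). The fit was tested on simulated data with the means and spreads of the tested probes, few of which were changed. It called 0 of 100 probes changed by a log2 of 1 and 27 of 100 changed by 2, with 1 false call. A probe that was not called can therefore still have changed. In the data themselves 1642 probes were called, which makes the adjustment less strict than with few changed probes. The simulated shares are thus not the recovery rates of this comparison. Figures were drawn with matplotlib in Python. Alternatives were 75th percentile scaling, normexp with an offset of 50, the authors' table, a floor of 5, other filters, removal of outlier spots, a trend, array weights, the methods' t-test, the block and the omission of each array. Omission of experiment 1 was added after seeing the data.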

Additional observations from a re-analysis of the deposited data

How the results depend on the processing

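The 2 Hox probes called by adjusted p became 1 with no filter on the mean signal and 1 in the methods' t-test (Hoxa2 in both). Array weights gave 6 (Hoxa2, Hoxc4, Hoxc6, Hoxd8, Hoxd10 and Hoxd12). Without experiment 1 there were 0, and 0 to 1 when 1 array was left out. At an unadjusted limma p under 0.05, 6 Hox probes passed without experiment 1, where 9316 of all 30782 probes tested in that fit did. The t-test was not run there. Leaving out 1 array also moved the calls over all probes, from 1642 to between 0 and 1403, and array weights gave 10260, the t-test 285 and the blocks 4292. The count past a fold of 2 and an unadjusted p under 0.01 went from 1 to 0 with normexp, 2 with array weights, 0 without experiment 1 and 1 to 2 with 1 array left out. The median over the tested Hox probes went from 0.18 to 0.0095 with normexp, 0 with no filter, -0.0083 over probes well above background, 0.036 with array weights, 0.084 without experiment 1 and -0.029 to 0.29 with 1 array left out, so that its sign depends on these choices; the cause was not tested. Scaling to the 75th percentile raised the median over all probes from 0.06 to 0.22, and all its differences are to be read against that shift. The replicate block changed the call of no Hox probe, with 2 called as in the unpaired fit. The Ntep probe gave -1.06 to 0.13 with 1 array left out, the reversed value, 0.13, being that without GapmeR Ntep replicate 2. Signs turned in Hox genes far from the threshold: leaving out 1 array gave -0.63 to 0.16 for Hoxb3 (0.0011 without GapmeR Ntep replicate 2); Hoxb4 gave 0.028 at the 75th percentile, 0.014 with normexp, 0.0013 without outlier spots, 0.036 with array weights and -0.23 to 0.22 with 1 array left out (above 0 in 3 fits, at 0.083, 0.14 and 0.22); with 1 array left out Hoxc13 ranged from -0.17 to 0.68 (-0.052 in another fit), Hoxd9 from -0.63 to 0.059 and Hoxd3 from -0.11 to 0.63 (-0.02 in another fit), and Hoxd3 gave -0.31 with array weights. The 16 genes detected on all 6 arrays became 22 with the looser flag for a positive and significant signal, 19 where 2 of 3 arrays of each label sufficed, and 16 to 18 with 1 array left out. With 3 arrays per label, small differences cannot be told from the spread between arrays, and dim probes near the floor carry no order.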
